A study of Mus musculus with 9 samples.

Results

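The hypoxia-inducible factor (HIF) subunits and the enzymes that sense oxygen for them were examined as 1 gene family in mouse bone marrow (BM)-derived Mϕs. The family was given as a list of 10 gene symbols: the alpha subunits Hif1a, Epas1 (HIF-2 alpha) and Hif3a, the beta subunits Arnt and Arnt2, the HIF prolyl hydroxylases Egln1, Egln2 and Egln3, the ubiquitin ligase subunit Vhl, and the asparaginyl hydroxylase Hif1an. All 10 were found by their Ensembl identifiers among the 53379 genes of the expression table, and 8 of the 10 were among the 12824 genes tested, those with a mean of at least 0.5 FPKM (fragments scaled by exon length and by the fragments of the library) over the 9 libraries. Hif3a and Arnt2 fell below that level. BM cells of wild-type C57BL/6 mice were differentiated with CSF-1 (MCSF) at 10 ng/ml for 3 days. They were then kept for 4 days in 10 ng/ml MCSF alone (Control, 3 libraries), in MCSF plus 10 ng/ml IL-4 (3 libraries) or in MCSF plus 100 ng/ml IL-6 (3 libraries). All groups therefore received MCSF, and the labels name no exposure to low oxygen. The methods of the study share the times and the IL-6 dose of the labels but name a higher IL-4 dose, and its figure legends differ again in dose and time; the values here are those of the labels. The study speaks of 3 mice, but the labels tie no library to a mouse, so that p-values measure the spread between these libraries.

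HIF is a transcription factor made of an oxygen-labile alpha subunit and a stable beta subunit. When oxygen is present, prolyl hydroxylases mark the alpha subunit, VHL binds the hydroxylated form and passes it to the proteasome, and HIF1AN (factor inhibiting HIF) blocks the binding of coactivators by a further hydroxylation. In Mϕs, HIF-1 alpha is known for glycolytic and inflammatory programmes, HIF-2 alpha is known as a second alpha subunit with partly separate targets, and Egln1 and Egln3 are themselves HIF target genes. This control acts on the protein, whereas the values below are mRNA levels.

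The promoters of Hif1a, Egln1 and Egln3 are shown because transcripts of these 3 genes were higher in IL-6-treated Mϕs than in both other groups. Each sequence is the 250 bases before the RefSeq start of transcription (GRCm38.p6), 5′ to 3′ on the strand of the gene. Capitals mark the core of the hypoxia response element, ACGTG or GCGTG on either strand (CACGT or CACGC when read from the opposite strand). The Hif1a window lies at chr12:73907617-73907866 on the plus strand, upstream of the start of 1 of several annotated Hif1a transcripts, the Egln1 window at chr8:124949255-124949504 on the minus strand, and the Egln3 window at chr12:54203875-54204124 on the minus strand.
Hif1a: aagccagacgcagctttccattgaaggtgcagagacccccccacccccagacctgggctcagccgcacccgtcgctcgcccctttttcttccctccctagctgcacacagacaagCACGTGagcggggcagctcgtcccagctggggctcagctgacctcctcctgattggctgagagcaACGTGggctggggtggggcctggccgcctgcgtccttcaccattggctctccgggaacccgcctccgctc
Egln1: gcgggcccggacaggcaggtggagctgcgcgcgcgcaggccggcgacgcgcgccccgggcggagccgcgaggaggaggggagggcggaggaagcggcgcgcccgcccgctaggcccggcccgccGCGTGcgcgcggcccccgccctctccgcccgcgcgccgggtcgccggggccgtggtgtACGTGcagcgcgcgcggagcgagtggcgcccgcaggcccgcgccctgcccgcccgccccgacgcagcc
Egln3: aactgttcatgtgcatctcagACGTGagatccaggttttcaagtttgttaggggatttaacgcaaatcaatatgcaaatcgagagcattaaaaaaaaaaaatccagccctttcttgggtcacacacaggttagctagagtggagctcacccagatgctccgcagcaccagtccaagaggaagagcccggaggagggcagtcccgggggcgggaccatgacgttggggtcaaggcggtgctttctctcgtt
The Hif1a window holds a palindromic CACGTG, in which the cores of both strands overlap at 130 to 135 bases before the start, and a further ACGTG at 66 to 70 bases. The Egln1 window holds GCGTG at 122 to 126 bases and ACGTG at 64 to 68 bases, and the Egln3 window holds ACGTG at 225 to 229 bases before the start. A core of this kind is common: 38.6% of the 32851 mouse promoter windows of the same length contain ACGTG or GCGTG. Promoters were at hand for 9 of the 10 members, and Hif3a, Arnt and Egln2 also have a core in the window, while Arnt2, Vhl and Hif1an have no match there. The letters TTCNNNGAA and TTCNNNNGAA, forms of the site bound by STAT factors, were searched on both strands as well. TTCNNNNGAA occurred in the Hif1a window at 226 to 235 bases and in the Hif1an window at 174 to 183 bases before the start, against 5.85% of all windows, and TTCNNNGAA (7.02% of all windows) occurred in no member. These matches are letters in a window, and binding was not measured in these libraries.

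The total by which FPKM was scaled, as recovered from the values, was between 29988160 and 39909571 fragments a library. Genes matched to the annotation with their version held 26164916 to 34139736 fragments a library. The treatments were visible in their textbook response genes: Socs3, a STAT3 target, had a log2 fold change of 5.12 in IL-6-treated Mϕs against Control (limma, adjusted p = 3.02e-05), and Arg1, a marker of IL-4 activation, had one of 10.58 in IL-4-treated Mϕs (adjusted p = 1.96e-06). 2 features of the libraries touch the comparisons. First, the 3 Control libraries and IL-4 #1 contained intestinal transcripts (1184 to 1578 fragments over the list of intestinal genes), whereas IL-4 #2, IL-4 #3 and the 3 IL-6 libraries held 3 to 8 such fragments. IL-6 can therefore not be compared with Control within either set of libraries, and the treatment and the set cannot be told apart there. Second, library IL-4 #3 was low for long genes: its log2 difference from the mean of IL-4 #1 and #2 had a median of 0.39 among the 3203 tested genes with the shortest exons and of -0.97 among the 3202 with the longest. Over the tested genes, its deviations from the group mean went with those of Control #2 (r = 0.584) and against those of Control #1 (r = -0.593). Among the Control libraries, #2 was lowest for Hif1a, Epas1, Arnt and Hif1an and highest for Egln2. A length trend within Control was not tested. Values adjusted for the set, by a term in the fit, and values without IL-4 #3 stand beside results that they change. The set term can be estimated only within IL-4, from IL-4 #1 against IL-4 #2 and #3. It therefore carries the values of IL-4 #3 into the comparisons, and these settings are not separate checks.

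**Figure D1:**
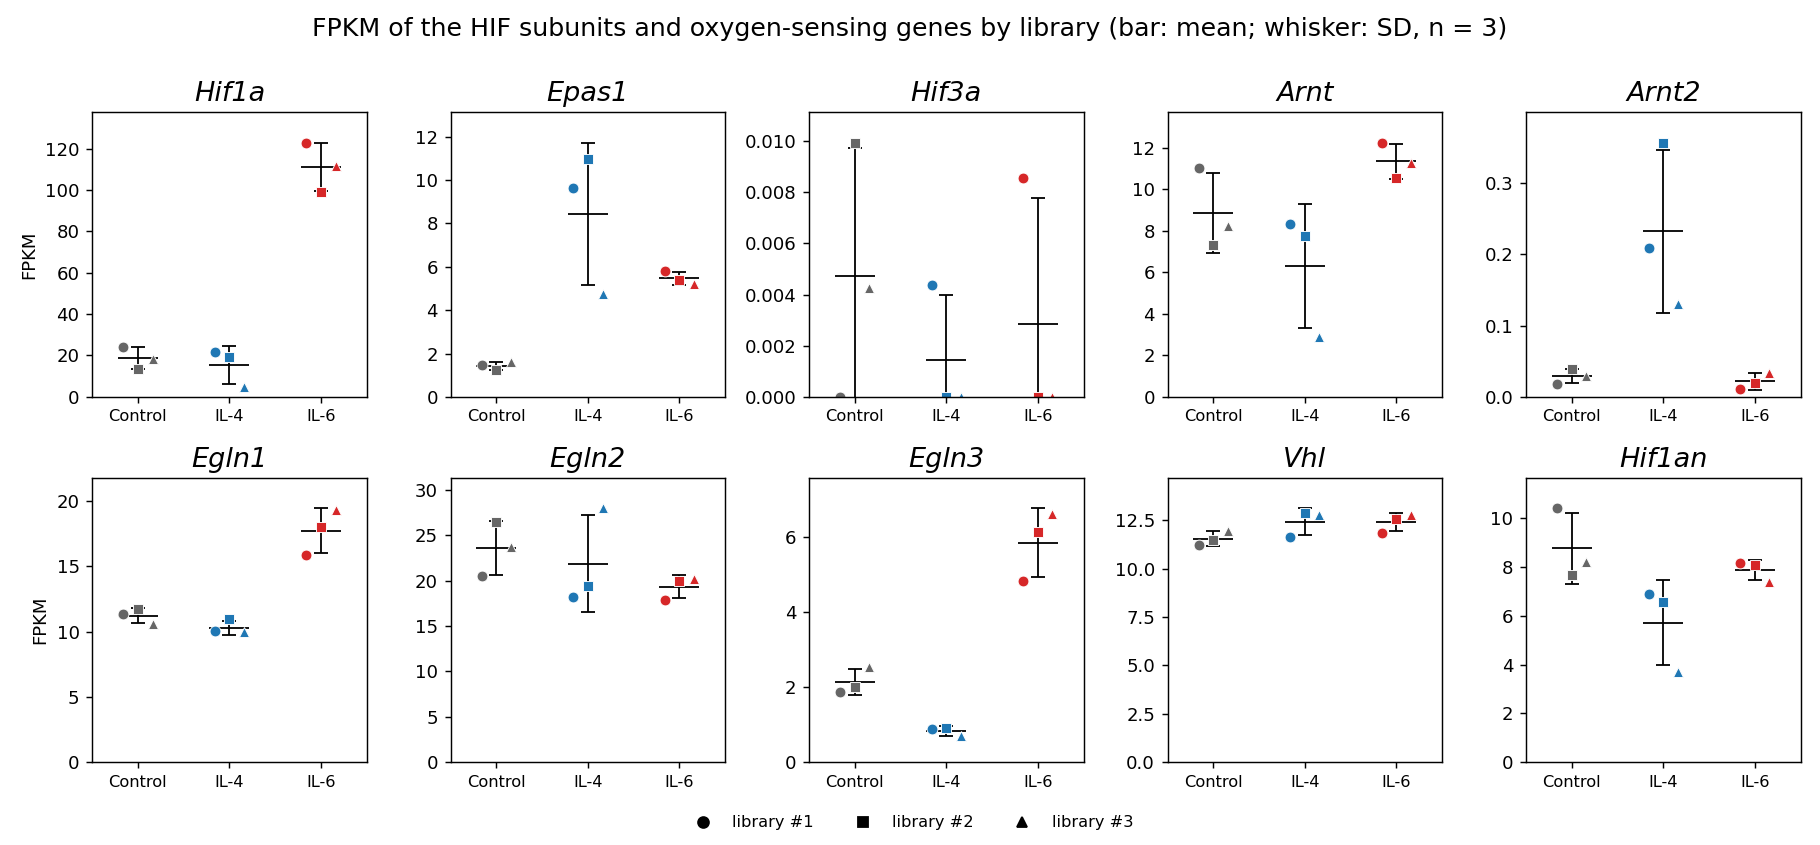
FPKM (y axis, from 0, a separate scale for each gene) of the 10 genes in Control, IL-4 and IL-6 libraries; symbols are the 3 libraries of a group, the bar is their mean and the whisker the SD. Hif1a, Egln1 and Egln3 are highest in the 3 IL-6 libraries, the highest Epas1 and Arnt2 values are those of IL-4 #2, Vhl lies between 11.2 and 12.9 in all 9 libraries, and Hif3a is at or near 0.

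Hif1a was the member with the largest difference between IL-6-treated and control Mϕs. In Control libraries #1, #2 and #3 its level was 24.3, 13.7 and 18.3 FPKM. In IL-4 libraries it was 21.9, 19.3 and 4.82 FPKM. In IL-6 libraries it was 123, 99.3 and 112 FPKM. The 3 IL-6 libraries all lay far above the other 6, while IL-4 and Control overlapped, with IL-4 #3 the lowest of all 9 libraries. The group means were 18.7 ± 5.33 (SD, n = 3) FPKM in Control, 15.3 ± 9.21 for IL-4 and 111 ± 11.7 for IL-6, so that the IL-6 mean was 5.93 times the Control mean and 7.24 times the IL-4 mean. Hif1a rose in IL-6-treated Mϕs by a log2 fold change of 2.60 (SE 0.523) against Control, with an adjusted p of 0.0204 in limma over all genes tested, and by 3.11 against IL-4 (adjusted p = 0.00268). The IL-4 value against Control was -0.52 (95% confidence interval -1.72 to 0.68, limma adjusted p = 0.504). Its sign turned on the libraries: it was 0.17 without IL-4 #3 (limma adjusted p = 0.581) and 0.26 with the set adjusted for (adjusted p = 0.895). An exact permutation test (two-sided, 3 libraries a group) gave 0.1 for both IL-6 comparisons, which is the smallest p that it can give with these numbers.

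The call against Control depended on the libraries in the fit, although the size did not. When each of the 9 libraries was left out in turn, the log2 fold change of Hif1a in IL-6 against Control ranged from 2.39 to 2.80 and passed in 4 of the 9 fits, with limma adjusted p-values from 0.000117 to 0.0870. The smallest of these belonged to the fit without IL-4 #3, and the call was lost without Control #2 or #3 and without any 1 of the IL-6 libraries. In a fit of the 2 groups alone the call held (limma adjusted p = 0.000492). Adjusting for the set of libraries gave a value of 3.76 (limma adjusted p = 0.0941), in which the low value of IL-4 #3 takes part. Within the libraries free of intestinal transcripts, the IL-6 mean was 9.20 times the mean of IL-4 #2 and #3. These libraries stood at 19.3 and 4.82 FPKM. Within the other set IL-4 #1 was 1.17 times the Control mean. The study singled out Hif1a from these same libraries, so its rise is not independent evidence. In whole-culture RNA, fewer cells of a type and less RNA per cell cannot be told apart, here and in all results below.

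The count behind Hif1a was large, from 1133 fragments in IL-4 #3 to 25227 in IL-6 #1. The locus, on chromosome 12 from 73901375 to 73947530 of GRCm38 on the plus strand, overlaps 2 other annotated genes. Gm49321, on the same strand, shares 148 exonic bases and held at most 2 fragments. Gm15283, on the opposite strand, shares 330 exonic bases and held at most 130 fragments, with a mean of 0.933 FPKM in IL-6-treated Mϕs against 0.0852 FPKM in Control. The library kit keeps strand, but whether the counting used it is not given in the sources used here, so reads of Hif1a and Gm15283 in the shared bases may not have been separated. Levels per gene do not tell the alternative starts of Hif1a apart.

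Epas1, the other expressed alpha subunit, was higher with both cytokines. Control libraries #1, #2 and #3 held 1.45, 1.25 and 1.61 FPKM. IL-4 libraries held 9.64, 11.0 and 4.73 FPKM. IL-6 libraries held 5.81, 5.38 and 5.23 FPKM. All 6 treated libraries exceeded all 3 Control libraries, and IL-4 #1 and #2 exceeded every IL-6 library while IL-4 #3 lay below them. The IL-4 mean of 8.44 ± 3.28 (SD, n = 3) FPKM was 5.87 times the Control mean of 1.44 ± 0.181, and the IL-6 mean of 5.47 ± 0.303 was 3.81 times that mean. Epas1 rose by a log2 fold change of 2.39 (SE 0.291) in IL-4-treated Mϕs (limma adjusted p = 0.000697) and by 1.86 in IL-6-treated Mϕs (adjusted p = 0.00667). Both calls held whichever library was left out, and IL-4 #1, which shares the intestinal transcripts of the Control libraries, was 6.71 times the Control mean. Adjusting for the library set, the IL-6 value was 2.28 with a limma adjusted p of 0.0977.

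Whether the difference in Epas1 between the cytokines passed turned on library IL-4 #3 and on the scaling of the libraries. With all 9 libraries the log2 difference of IL-6 from IL-4 was -0.53 (95% confidence interval -1.20 to 0.14, limma adjusted p = 0.180). Without IL-4 #3 it was -0.90, with an adjusted p of 0.00101. After length and GC trends had been removed from each library it was -0.82 (limma adjusted p = 0.00652), a setting chosen after the length trend of IL-4 #3 had been seen. It also passed after median-ratio rescaling (-0.76, limma adjusted p = 0.0266) and quantile normalization (-0.78, adjusted p = 0.0183).

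Since FPKM is a level per length of exon, the alpha subunits can be set against each other within a library. Hif1a made up 94.4%, 91.6% and 91.9% of the summed FPKM of the alpha subunits in Control libraries #1, #2 and #3. It made up 69.4%, 63.8% and 50.5% in IL-4 libraries and 95.5%, 94.9% and 95.5% in IL-6 libraries. Every IL-4 library thus had a larger share of Epas1 than every other library, and the Hif1a to Epas1 ratio was 1.68 ± 0.629 in IL-4 against 13.0 ± 3.23 in Control and 20.3 ± 1.61 in IL-6 (SD, n = 3). This ratio, and the others given below, were chosen after the values had been seen; of 15 two-sided exact permutation tests on 5 such ratios, each of the 3 on this one gave 0.1, the smallest p possible, and 0.125 after Benjamini-Hochberg adjustment. Hif3a, a further alpha subunit with splice forms that can oppose the other two, had between 0 and 2 fragments in each library, which is below the floor of 3 fragments used for a fold.

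**Figure D2:**
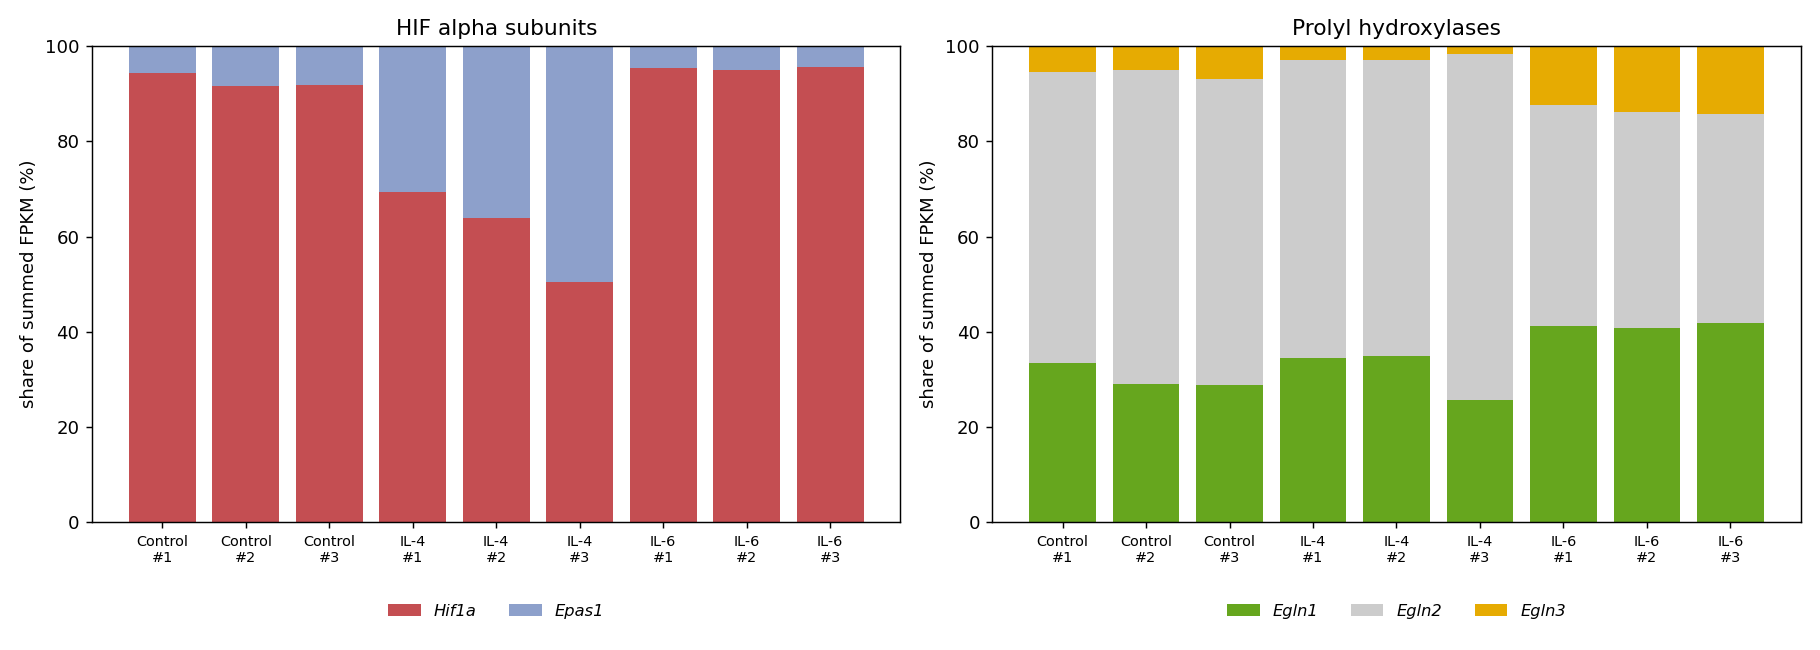
Share of the summed FPKM (y axis, %) taken by each HIF alpha subunit (left) and each prolyl hydroxylase (right) in the 9 libraries (x axis). Epas1 takes its largest shares in the 3 IL-4 libraries, and Egln3 takes 12.5% to 14.3% in IL-6 libraries against 1.78% to 3.02% in IL-4 libraries.

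Arnt, the beta subunit that pairs with HIF alpha subunits and with the aryl hydrocarbon receptor, varied much less than its partners. It stood at 11.0, 7.32 and 8.23 FPKM in Control, at 8.32, 7.73 and 2.88 FPKM in IL-4 and at 12.3, 10.6 and 11.3 FPKM in IL-6 libraries. Control overlapped with both treated groups, and the IL-6 libraries lay above the IL-4 libraries, of which IL-4 #3 was again the lowest. The log2 fold change was -0.60 (limma adjusted p = 0.281; -0.12 without IL-4 #3, adjusted p = 0.616) in IL-4 and 0.37 (adjusted p = 0.639) in IL-6 against Control. Between the cytokines it was 0.98 (limma adjusted p = 0.0753), and this difference passed without IL-4 #3 (0.49, adjusted p = 0.0439), without IL-4 #1 (1.24, adjusted p = 0.0385), after adjustment for the library set (1.24, adjusted p = 0.0387) and after removal of the length and GC trends (0.60, adjusted p = 0.0194). The ratio of Hif1a to Arnt was 2.10 ± 0.200 in Control, 2.27 ± 0.520 for IL-4 and 9.77 ± 0.329 for IL-6 (SD, n = 3), and the IL-6 libraries did not overlap with the others (exact permutation p = 0.1 for both).

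Arnt2, a paralogue of Arnt known mainly from neurons and kidney, was barely present but followed IL-4. It had 5, 9 and 8 fragments in Control libraries, 55, 83 and 40 in IL-4 libraries and 3, 5 and 8 in IL-6 libraries. The 3 IL-4 libraries stood above the other 6 without overlap. Mean levels were 0.0291 ± 0.0102, 0.232 ± 0.115 and 0.0217 ± 0.0114 (SD, n = 3) FPKM in the Control, IL-4 and IL-6 groups, a ratio of 7.97 for IL-4 over Control. In the limma fit of all genes with any fragment, Arnt2 rose in IL-4 by 1.31 on the log2(FPKM + 0.1) scale, which understates changes at this level (adjusted p = 0.0202), and was lower in IL-6 than in IL-4 by -1.40 (adjusted p = 0.0115). In that fit 9.81% of the 31047 genes were called in IL-4 against Control, 3.15% in IL-6 against Control and 14.2% in IL-6 against IL-4. The first of these calls was lost without any 1 of the Control libraries (adjusted p 0.0557 to 0.0718), after adjustment for the library set (adjusted p = 0.150) and in a fit of the 2 groups alone (adjusted p = 0.0752), whereas the second held whichever library was left out.

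Of the 3 prolyl hydroxylases, Egln3 moved in opposite directions with the cytokines. It stood at 1.86, 2.02 and 2.53 FPKM in Control libraries #1, #2 and #3. It stood at 0.879, 0.917 and 0.687 FPKM in IL-4 libraries and at 4.82, 6.13 and 6.60 FPKM in IL-6 libraries. The groups did not overlap: every IL-4 library was below, and every IL-6 library above, the range of Control. Egln3 fell in IL-4-treated Mϕs to 38.8% of the Control mean (log2 fold change -1.27, SE 0.194, limma adjusted p = 0.00217) and rose in IL-6-treated Mϕs to 2.74 times that mean (1.41, adjusted p = 0.00358). The IL-6 mean was 7.07 times the IL-4 mean, with a log2 difference of 2.68 (SE 0.194, limma adjusted p = 2.78e-05). All 3 calls held whichever library was left out. Within the set with intestinal transcripts, IL-4 #1 was 0.412 times the Control mean, and within the other set the IL-6 mean was 7.30 times that of IL-4 #2 and #3. Adjusting for the library set, the IL-6 value against Control was 1.54 (limma adjusted p = 0.1001).

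Egln1, which encodes PHD2, the main oxygen sensor of most cells, rose with IL-6 by less. Its levels were 11.3, 11.7 and 10.6 FPKM in Control, 10.0, 10.9 and 9.93 FPKM in IL-4 and 15.9, 18.0 and 19.3 FPKM in IL-6 libraries. The IL-6 libraries were all above the other 6, and IL-4 overlapped with Control. The IL-6 mean of 17.7 ± 1.73 (SD, n = 3) FPKM was 1.58 times the Control mean of 11.2 ± 0.573, a log2 fold change of 0.65 (SE 0.116, limma adjusted p = 0.0111). Against IL-4 it was 0.78 (adjusted p = 0.00137 in limma). The call against Control was lost without Control #3 (adjusted p = 0.0691), IL-6 #2 (adjusted p = 0.0640) or IL-6 #3 (adjusted p = 0.0660) and on adjusting for the library set (0.60, adjusted p = 0.225), while that against IL-4 held whichever library was left out.

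Egln2, which encodes PHD1, was the most abundant prolyl hydroxylase and did not pass in any comparison. Its levels were 20.6, 26.5 and 23.7 FPKM in Control, 18.2, 19.4 and 28.0 FPKM in IL-4 and 17.9, 19.9 and 20.2 FPKM in IL-6 libraries. The IL-6 libraries lay just below the Control range, with a log2 difference of -0.28 (95% confidence interval -0.69 to 0.13, limma adjusted p = 0.448), and IL-4 #3 was the highest of all 9. The ratio of Egln2 to Egln1 was accordingly 2.10 ± 0.248 in Control, 2.14 ± 0.592 for IL-4 and 1.09 ± 0.0432 for IL-6 (SD, n = 3). Egln3 took 5.80% of the summed prolyl hydroxylase FPKM in Control, 2.58% for IL-4 and 13.6% for IL-6, with no overlap between groups. The summed prolyl hydroxylases were 1.95 ± 0.699 times the summed alpha subunits in Control, 2.00 ± 1.77 times for IL-4 and 0.372 ± 0.0632 times for IL-6 (SD, n = 3), and the 3 IL-6 libraries lay below the other 6 (exact permutation p = 0.1 for both). The IL-4 mean rests on IL-4 #3, at 4.05 times. IL-4 #1 and #2 stood at 0.923 and 1.03 times, with a mean of 0.978, and both lay below every Control library (1.31 to 2.70 times).

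Vhl, the substrate receptor of the ligase that removes hydroxylated HIF, hardly varied. It stood at 11.2, 11.4 and 12.0 FPKM in Control, at 11.6, 12.9 and 12.8 FPKM in IL-4 and at 11.9, 12.6 and 12.8 FPKM in IL-6 libraries, and all groups overlapped. The log2 difference from Control was 0.10 for both cytokines, with 95% confidence intervals of -0.13 to 0.34, and limma adjusted p-values were 0.491 and 0.637.

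Hif1an was lower in the IL-4 libraries without passing the test. Its levels were 10.4, 7.68 and 8.19 FPKM in Control, 6.90, 6.57 and 3.70 FPKM in IL-4 and 8.17, 8.07 and 7.39 FPKM in IL-6 libraries. The IL-4 libraries lay below both other groups, and IL-6 overlapped with Control. The log2 fold change in IL-4 was -0.65 (95% confidence interval -1.20 to -0.09, limma adjusted p = 0.0871), and after removal of the length and GC trends it was -0.37 and passed (adjusted p = 0.0299). Without IL-4 #3 it was -0.36 (limma adjusted p = 0.0687). In IL-6 against Control it was -0.14 (limma adjusted p = 0.787).

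**Figure D3:**
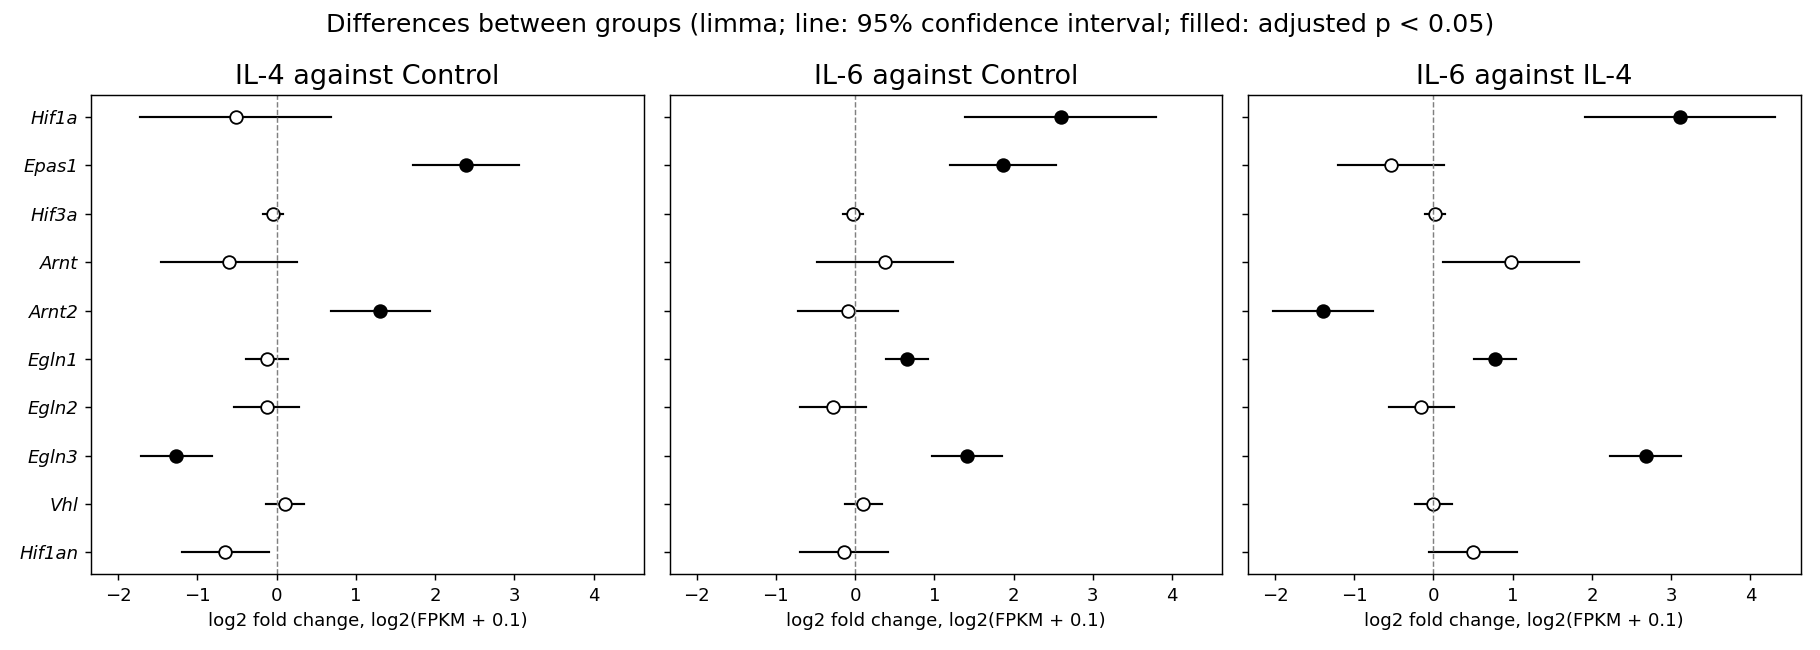
Log2 fold change on the log2(FPKM + 0.1) scale (x axis) of each of the 10 genes in the 3 comparisons; lines are 95% confidence intervals of limma, and filled points have an adjusted p under 0.05. Filled points to the right in IL-6 against Control belong to Hif1a, Epas1, Egln1 and Egln3; Hif3a and Arnt2 come from the fit without a filter on low values.

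Over the 8 members tested, 4 were called in IL-6 against Control, all higher (Hif1a, Epas1, Egln1 and Egln3), where 8.4% of all tested genes were called and 4.58% were called higher. The share called lower was 3.82%. In IL-4 against Control 2 were called, Epas1 higher and Egln3 lower, where 24.8% of all tested genes were called, 8.55% higher and 16.3% lower. In IL-6 against IL-4 3 were called, all higher (Hif1a, Egln1 and Egln3), beside 34.1% of all tested genes, 20.8% called higher and 13.3% called lower. A log2 fold change of at least 1 as well was reached by 3 of the 4 (5.38% of all tested genes), by both (13.9%) and by 2 of the 3 (20.4%), the exception in each IL-6 comparison being Egln1. Groups did not overlap for 5 members in IL-6 against Control (43.2% of all tested genes), for 3 in IL-4 against Control (40.3%) and for 5 in IL-6 against IL-4 (56.9%). The median log2 fold change of the 8 members was 0.51 in IL-6 against Control, beside -0.00 over all tested genes, -0.32 in IL-4 against Control, beside -0.20, and 0.64 in IL-6 against IL-4, beside 0.22. The comparisons share libraries, so their counts are not independent of each other.

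Ordered by level in Control, the family ran from Egln2 (mean 23.6 FPKM) through Hif1a (18.7), Vhl (11.5), Egln1 (11.2), Arnt (8.86) and Hif1an (8.76) to Egln3 (2.14) and Epas1 (1.44), with Arnt2 and Hif3a below 0.05 FPKM. The libraries of Egln2 and Hif1a overlapped, as did those of Vhl and Egln1, those of Egln1 and Arnt and those of Arnt and Hif1an. In IL-6-treated Mϕs Hif1a led at 111 FPKM, far above Egln2 (19.3) and Egln1 (17.7), whose libraries overlapped. Egln3 (5.85) and Epas1 (5.47) overlapped at the lower end in that group.

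**Figure D4:**
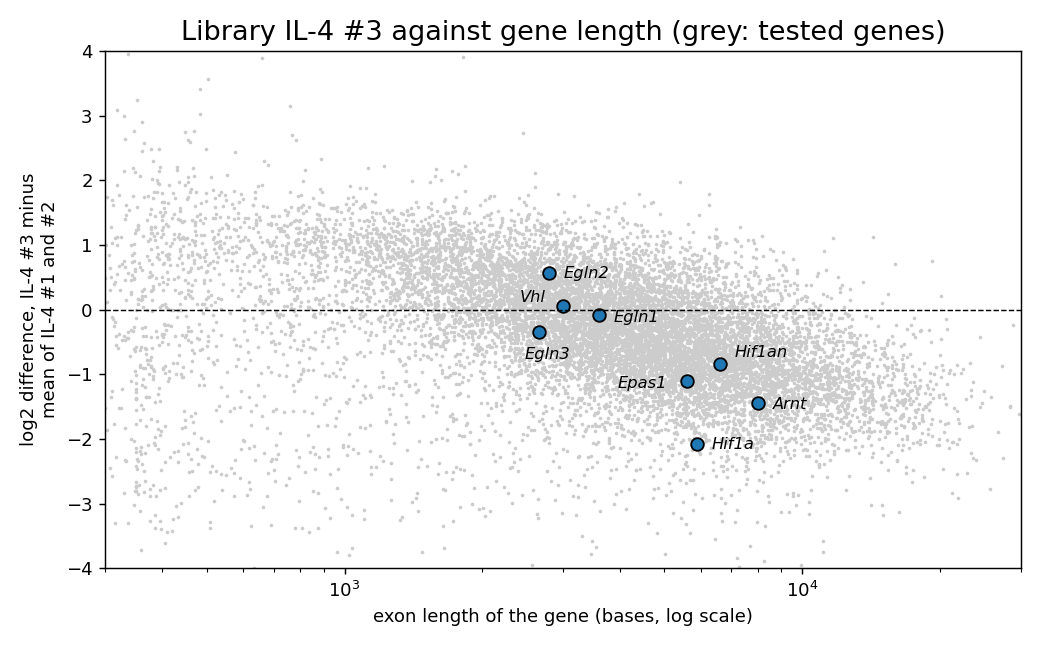
Log2 difference in FPKM between library IL-4 #3 and the mean of IL-4 #1 and #2 (y axis) against annotated exon length (x axis, log scale) for tested genes (grey; those outside the axes are not drawn) and the 8 tested members (blue). Hif1a (-2.07), Arnt (-1.45), Epas1 (-1.10) and Hif1an (-0.85), whose exons sum to more than those of the other 4, are the members furthest below 0 in IL-4 #3. Egln3, with shorter exons, is at -0.34.

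The 4 members with the longest exons were those on which IL-4 #3 weighed most. Its log2 difference from IL-4 #1 and #2 was -2.07 for Hif1a (5896 bases of exon), -1.45 for Arnt (8007 bases), -1.10 for Epas1 (5590 bases in the annotation used, 5309 by the steps between its own FPKM values) and -0.85 for Hif1an (6606 bases). Among the shorter members it was -0.34 for Egln3 (2662 bases), -0.08 for Egln1 (3594 bases), 0.06 for Vhl (2997 bases) and 0.57 for Egln2 (2800 bases). Hif1a and Epas1 both lay below the median of -0.51 of the 3201 tested genes with exons of 3796 to 6176 bases, the range to which they belong.

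Genes whose levels followed those of the members most closely were taken as the 3 with the highest Pearson r over the 9 libraries on log2(FPKM + 0.1), a description over libraries of 3 groups. For Hif1a these were N4bp1 (r = 0.997), Fbxl5 (0.994) and Picalm (0.993). For Epas1 they were Pim1 (0.993), 2700099C18Rik (0.989) and Cass4 (0.989). For Egln3 the closest were Stx11 (0.997) and Dgat2 (0.994). Picalm, an adaptor of clathrin-mediated endocytosis, had means of 32.4, 26.2 and 65.3 FPKM in the same order of groups (Control, IL-4, IL-6), and Dgat2, an enzyme of triglyceride synthesis, had means of 3.80, 1.86 and 7.72 FPKM.

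The machinery around the members was read from 5 lists, whose counts stand beside 24.8% of all tested genes called in IL-4 against Control (8.55% higher and 16.3% lower) and 8.4% called in IL-6 against Control. Of the 8 partners of VHL in its ligase (such as Cul2, Rbx1, Elob and Eloc), 0 were called by limma in IL-4 or in IL-6 against Control; 0 had an unadjusted p under 0.05, and limma voom on fragments called 0 of the 4 that it tested. Of 12 regulators of the prolyl hydroxylases, Siah2, a ligase that targets them, rose with IL-4 (log2 fold change 0.89, limma adjusted p = 0.0136), and Ing4, a chromatin reader reported to bind PHD2, fell (-0.82, adjusted p = 0.0414, and 0.0578 with the replicate block). IL-6 called 0 of these 12 in limma, also at an unadjusted p under 0.05. Of 15 coactivators and inhibitors, IL-4 called 3 higher and 3 lower and IL-6 called 1. Bhlhe41, a repressor reported to promote the degradation of HIF, fell with both cytokines (-1.97 with IL-4, limma adjusted p = 6.26e-05; -0.99 with IL-6, adjusted p = 0.00582). Cited2, which competes with HIF alpha for its coactivators, fell with IL-4 (-0.74, limma adjusted p = 0.00348) and had a value of -0.04 with IL-6, whereas its relative Cited4 rose with IL-4 (1.93, adjusted p = 0.0311), as did the chaperone Hsp90ab1 (0.49, adjusted p = 0.0167). Without IL-4 #3, limma called 37.8% of all tested genes in IL-4 and 24.7% in IL-6 against Control. Of the VHL partners it then called 1 higher and 1 lower with IL-4 and 1 higher with IL-6. Of the hydroxylase regulators it called 1 higher and 2 lower with IL-4. Of the coactivators and inhibitors it called 5 higher and 3 lower with IL-4 and 1 higher and 1 lower with IL-6. Adjusting for the library set left 1 call over these 3 lists against Control, a coactivator or inhibitor that was lower with IL-4. In that setting 10.7% of all tested genes were called in IL-4 and 1.46% in IL-6 against Control.

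Among 10 tested other factors of the bHLH-PAS class to which HIF belongs, IL-6 called 1, Ahrr, the repressor of the aryl hydrocarbon receptor, which rose by 1.87 (limma adjusted p = 0.0349). IL-4 called Npas2, a clock factor, higher (1.06, limma adjusted p = 0.00488) and Per3, another clock gene, lower (-1.95, adjusted p = 0.0109). Among 22 tested other oxygenases that, like the HIF hydroxylases, use 2-oxoglutarate, IL-4 called 3, all lower, among them the lysyl hydroxylase Plod1 (-1.01, limma adjusted p = 0.00129) and the histone demethylase Kdm5b (-1.01, adjusted p = 0.0141). IL-6 called 1 of the 22, the collagen prolyl hydroxylase P4ha1, higher (0.68, limma adjusted p = 0.0189). Without IL-4 #3, 24.7% of all tested genes were called in IL-6 and 37.8% in IL-4 against Control. IL-6 then called 4 higher and 1 lower of the 22 and 3 higher and 1 lower of the 10. IL-4 then called 1 higher and 4 lower of the 22. Once the library set was adjusted for, limma called 0 of either list with IL-6, beside 1.46% of all tested genes. There 2 of each list had an unadjusted p under 0.05 with IL-6. With IL-4 that setting called 0 of the 10 and 1 of the 22, lower, beside 10.7% of all tested genes.

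Known HIF target genes, with the members left out, were read from a list of which 26 were tested. In IL-6-treated Mϕs 10 of the 26 were called, all higher, beside 4.58% called higher of all tested genes, with a list median of 0.70 beside -0.00. With the replicate block the count was 8, since Ndrg1 (0.77, limma adjusted p = 0.0677) and Mxi1 (0.64, adjusted p = 0.0586) no longer passed (both named here after their values had been seen). In IL-4-treated Mϕs 7 were called higher and 5 lower, beside 8.55% and 16.3% of all tested genes, with a list median of -0.10 beside -0.20. The largest rises with IL-6 were in Ddit4, an inhibitor of mTORC1 signalling (2.49, limma adjusted p = 0.00069), and Slc16a3, the lactate exporter MCT4 (2.29, adjusted p = 2.95e-05). With IL-4, Slc16a3 fell (-0.86, limma adjusted p = 0.00131). The largest rises with IL-4 were in the transcription factor Bhlhe40 (2.52, limma adjusted p = 0.000159) and the transferrin receptor Tfrc (1.78, adjusted p = 0.0139), and the largest falls were in the glycolytic regulator Pfkfb3 (-1.38, adjusted p = 0.0126) and in Ndrg1 (-1.34, adjusted p = 0.00115). Vegfa, the angiogenic growth factor and a classical HIF target, was called against Control with neither cytokine (-0.44 with IL-4, limma adjusted p = 0.250; 0.35 with IL-6, adjusted p = 0.510); it and the next gene are not among those fixed by the naming rule and were chosen after their values had been seen. Slc2a1, the glucose transporter GLUT1, rose with both (1.31, limma adjusted p = 0.000478; 1.60, adjusted p = 0.000561). Without IL-4 #3 the IL-6 count was 15 of 26, where 24.7% of all tested genes were called, and adjusting for the library set left 2, where 1.46% of all tested genes were called, with the list median at 0.71. The IL-4 counts without IL-4 #3 were 8 higher and 6 lower, where 37.8% of all tested genes were called. Adjusted for the set, they were 5 higher and 3 lower, where 10.7% were called. P4ha1, P4ha2 and Kdm3a belong to both this list and the oxygenases.

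**Figure D5:**
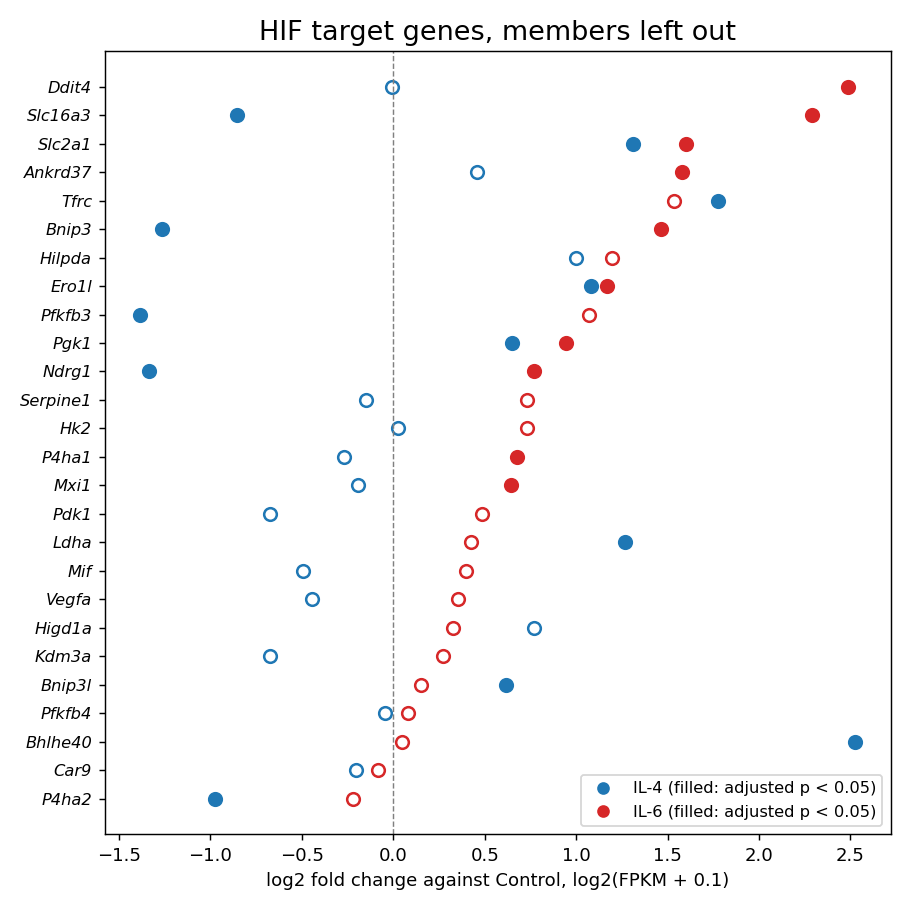
Log2 fold change against Control on the log2(FPKM + 0.1) scale (x axis) of 26 HIF target genes (y axis, ordered by the IL-6 value) in IL-4- and IL-6-treated Mϕs; filled points have a limma adjusted p under 0.05. The 10 filled IL-6 points all lie to the right of 0, and filled IL-4 points lie on both sides; both sets of values use the same Control libraries.

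Markers of the cells that the cultures could hold moved with the groups. All 8 macrophage markers were expressed in every group, and their summed FPKM, mostly Lyz2, was 16662 to 18966 in Control, 6021 to 7062 in IL-4 and 20369 to 21461 in IL-6 libraries. With IL-6, Lyz2, Cd14 and Itgam lay above Control and Cd68 below it (934 to 968 against 1311 to 1642 FPKM). Adgre1, Csf1r, Mertk and Fcgr1 overlapped between IL-6 and Control. With IL-4, Itgam lay above Control (37.2 to 72.3 against 33.7 to 36.8 FPKM), and the other macrophage markers lay below it. All 10 granulocyte and precursor markers were detected as well, and their sum was 4922 to 8808 FPKM in Control, 2193 to 4136 in IL-4 and 7986 to 11160 in IL-6 libraries. That sum was mostly S100a8 and S100a9. Camp, Elane and Mpo, which mark granules of neutrophils and their precursors, overlapped between IL-6 and Control libraries, as did Ngp, Ly6g and S100a9. Ltf and Prtn3, from the same list, were higher in IL-6 without overlap, as was S100a8. Ltf stood at 276 to 400 FPKM in IL-6 against 163 to 261 in Control, and Prtn3 at 29.7 to 49.4 against 11.6 to 28.1. Retnlg, a further neutrophil gene, stood at 95.1 to 195 FPKM in IL-6 and 182 to 350 FPKM in Control libraries. Endothelial markers, of interest because Epas1 is abundant in endothelium, summed to 0.936 to 1.30 FPKM in Control, 1.06 to 1.32 in IL-4 and 2.09 to 3.28 in IL-6 libraries over 8 genes, of which Robo4 was at 0 throughout and Tek and Emcn did not exceed 0.07 FPKM. Esam, an endothelial adhesion molecule, stood at 1.11 to 2.10 FPKM in IL-6 against 0.260 to 0.558 in Control and 0.459 to 0.690 in IL-4 libraries. Kdr, the VEGF receptor of endothelium, stood at 0.530 to 0.597 FPKM in IL-6 against 0.240 to 0.320 in Control libraries. Stromal markers summed to at most 0.879 FPKM in any library. The sum of 5 genes of dissociation stress was 172 to 216 FPKM in Control, 377 to 471 in IL-4 and 128 to 169 in IL-6 libraries, and had the same order of groups as Atf3, its most abundant gene (117 to 150 FPKM in Control, 256 to 334 in IL-4 and 61.2 to 68.3 in IL-6). Fos was above Control with both cytokines, at 14.2 to 15.9 FPKM in Control, 28.4 to 41.6 in IL-4 and 30.4 to 55.2 in IL-6 libraries. Hspa1b, at low levels, was also above Control with both (0.274 to 0.286, 0.331 to 0.344 and 0.358 to 0.590 FPKM in that order). Jun and Hspa1a overlapped between IL-6 and Control. Skeletal muscle markers summed to 1.89 to 8.14 FPKM in the 4 libraries with intestinal transcripts and 8.41 to 14.4 in the other 5, without overlap. Among them Mylpf stood at 0.378 to 0.778 FPKM in Control against 2.21 to 5.48 in IL-6, Myh1 and Myl1 were at 0 in all 3 Control libraries, and Tnni2 was higher in Control (4.34 to 6.97 FPKM) than in IL-6 (1.94 to 2.28 FPKM). T and B cell markers, mostly Cd79a, summed to 11.6 to 21.3 FPKM in Control, 11.2 to 13.3 in IL-4 and 8.62 to 15.9 in IL-6 libraries. Erythroid markers summed to 4.69 to 13.4, 1.16 to 8.005 and 4.70 to 13.2 FPKM in the same order of groups. The part of these cells and of stress in the results for the members was not tested.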

How the data were processed

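RNA of 9 cultures (3 Control, 3 IL-4, 3 IL-6) was sequenced as stranded mRNA libraries. The submitters' processing notes name STAR 2.4.2a, Cufflinks 2.2.1 and GRCm38. The authors deposited 1 table of FPKM for 53379 genes, for which the study's methods name Cufflinks with GENCODE M5. Lengths of exons were taken from GENCODE M21, the annotation at hand, to which 94.8% of the gene identifiers matched with their version; the Epas1 identifier matched without it. With these lengths all of 109680 values tested came out as whole fragments (100.0%, tolerance 0.05), from which the fragments per gene and library were recovered. Another counter and annotation release than those named may therefore have made the deposited values. The sources used here do not settle this.

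FPKM values were tested as log2(FPKM + 0.1) in limma 3.58.1 (R 4.3.3; trend and robust), 9 libraries in 1 fit, over the 12824 genes whose FPKM averaged 0.5 or more. P-values were adjusted by Benjamini-Hochberg over those genes, and genes with an adjusted p under 0.05 were called. Arnt2 and Hif3a were taken from the same fit over the 31047 genes with any fragment. Single ratios were compared by two-sided exact permutation tests. The fit was tested on simulated data. A library counted as holding intestinal transcripts with 20 or more fragments over the intestinal list, without Lyz1, whose reads cannot be separated from Lyz2; Lyz1 was left out after its values were seen. All 10 members were named; of each list, the 2 largest rises and 2 largest falls per cytokine among called genes that did not overlap with Control were named, and 1 gene close to a member is not reported here. The members and lists were chosen with earlier results of these data known. No column of the table was left unassigned to a library. Promoters came from RefSeq (GRCm38.p6). The table headings number the libraries of each group m1 to m3 and do not say whether m stands for mouse. Deviations of libraries with the same number went together in all 3 pairs of IL-6 and Control (r = 0.408, 0.201 and 0.166) but not in every pair with IL-4. Some pairs with different numbers had r as high: 0.176 for IL-6 #3 with Control #2, and 0.584 for IL-4 #3 with Control #2. The r values therefore cannot tell whether a number marks a shared source. Values with the number as a replicate block stand beside the calls they change. Alternatives are given in the closing section.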

Additional observations from a re-analysis of the deposited data

How the results depend on the processing

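Over pseudocounts, filters, scalings, fits and left-out libraries, 573 values of the members were computed: 533 kept their direction and their side of the threshold, 17 kept their direction but no longer passed, 9 newly passed, and 14 changed sign, none of them called by limma in either fit. The sign changes in IL-4 against Control were Hif1a (0.26 with the library set as a term, -0.91 to 0.17 when 1 library was left out), Egln1 (0.0788 after median-ratio rescaling, 0.0631 without length and GC trends) and Egln2 (0.0763 after that rescaling). In IL-6 against Control they were, with the set as a term, Hif3a (0.0354; -0.0656 to 0.00942 with 1 library left out), Vhl (-0.0397) and Hif1an (0.33). In IL-6 against IL-4 they came with 1 library left out: Hif3a (-0.0205 to 0.0394), Egln2 (-0.27 to 0.0374) and Vhl (-0.0494 to 0.0299). The members called in IL-4 against Control were 2, but 1 with a filter at a mean FPKM of 5 and 3 after removal of the length and GC trends, and they were 2 whichever library was left out. In IL-6 against Control they were 4, but 0 with the library set as a term in limma, where 4 had an unadjusted p under 0.05, and 2 to 4 when 1 library was left out (2 without Control #3, IL-6 #2 or IL-6 #3). In IL-6 against IL-4 they were 3, but 5 after removal of the length and GC trends (chosen after seeing the data) and 3 to 5 when 1 library was left out (5 without IL-4 #3).

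Over all genes, 3186 were called in IL-4 against Control, 1077 in IL-6 against Control and 4375 in IL-6 against IL-4. A mean FPKM of at least 5 gave 1839, 628 and 2479, and a required log2 fold change of 1 gave 1784, 690 and 2613. A fit of the 2 groups alone gave 1796 in IL-4 and 2822 in IL-6 against Control, and the set as a term gave 1367 and 187. Removal of the length and GC trends gave 1805 in IL-6 against Control. Leaving out 1 library gave 2026 to 4848, 462 to 3168 and 2911 to 5544, the highest of each without IL-4 #3. The share of calls that were higher was 34.4% in IL-4 against Control (49.4% after median-ratio rescaling, which moved the median of all genes from -0.20 to -0.00; 46% without length and GC trends), 54.5% in IL-6 against Control (78.6% with the set as a term) and 61.1% in IL-6 against IL-4 (48.5% after that rescaling, 48.1% after quantile normalization). The cause of these shifts was not tested.

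The libraries share replicate numbers, which the labels do not tie to a mouse. Over the 3 comparisons r was -0.415 to 0.521 for same-numbered libraries and -0.593 to 0.584 for libraries with different numbers. With the replicate block the members called were 2, 4 and 3, as without it, and the genes called were 3023, 908 and 4463. Of the lists, 4 calls against Control changed, those of Ing4, Ndrg1 and Mxi1, given above, and Kdm6b in IL-4 (-1.30, limma adjusted p = 0.0525, and 0.0483 with the block).

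With 3 libraries a group, the smallest exact p is 0.1. Hif3a, at 0 to 2 fragments, cannot be compared at this depth, and Arnt2 rests on 3 to 83 fragments a library.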
